A study of Xenopus laevis with 6 samples.

Results

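The secretory pathway and vesicle traffic genes described here are the probe sets with a single gene symbol whose name begins as a Rab or Arf GTPase (rab plus a digit, arf1 to arf6), a SEC gene (sec plus a digit), a COPI coat subunit (copa, copb, cope, copg or copz), a p24 receptor (tmed), a vacuolar protein sorting gene (vps), a sorting nexin (snx) or a subunit of adaptor complexes AP-1 to AP-4. For the adaptors, the complex is followed by b, d, e, g, m or s and a digit, so alpha subunits of AP-2 are left out. The rule uses names alone and no measured value. It found 176 probe sets for 136 genes, among 15491 probe sets on the array other than controls. After the dimmest 25% of all probe sets were left out, 167 of the 176, for 129 genes, remained for testing against 11618 tested in all. Xenopus laevis carries pairs of genes from a genome duplication, called homeologs and marked .L and .S, and these are counted as separate genes.

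Newly made proteins enter the endoplasmic reticulum (ER) through the Sec61 channel, leave it in vesicles coated by COPII, and pass the Golgi apparatus, from which COPI-coated vesicles carry proteins back to the ER. Clathrin adaptors of the AP family, Rab and Arf GTPases, sorting nexins, retromer and the ESCRT complexes then direct cargo between the Golgi, the cell surface, endosomes and lysosomes. Hedgehog ligands are themselves secreted by this route, and the movement of their receptors through endosomes and cilia depends on it. In kidney tubules the same machinery places transporters on the apical or basolateral surface.

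Pronephric explants, flank tissue from which the larval kidney forms, were cut from stage 24 embryos of a strain and genotype that the labels do not name. One group had been treated with bhh (banded hedgehog, a hedgehog ligand whose gene is now named ihh), and the other was untreated. Both groups consisted of 3 pools of 300 explants, each explant about 70 × 100 × 70 µm, and each pool was hybridised to its own 1-colour Affymetrix array. The labels name no mock-treated group and do not say how bhh was supplied.

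The ihh.S signal was 3121.3, 2956.6 and 2824.2 in bhh-treated explants, against 36, 14.3 and 17.8 in untreated explants. All 3 untreated values lay under 37.6, a background level set at the 95th percentile over 44 controls for bacterial and tag sequences. The signal was thus at least 78.9-fold higher in the bhh-treated group. The trimmed mean was 500.1 on every array, and with 3 arrays a group their number limits the precision of each value. Of 6 measured genes that mark the pronephros, 1 rose and 2 fell at their brightest probe sets. osr1.L rose from a mean of 142.5 in untreated to 282.3 in bhh-treated explants. fxyd2.S fell from 626.7 to 26.5 and lhx1.L from 420.7 to 35.7. The groups overlapped for wt1.L, pax8.L and pax2.L. A dimmer pax2.L probe set was lower (limma adjusted p = 0.0353), and another did not pass (0.114). The summed signal of the list was 451 to 546 on bhh-treated arrays, against 1337 to 1484 on untreated arrays. On untreated arrays fxyd2.S and lhx1.L made up most of it. Of 9 tested genes of somite muscle, 3 fell and none rose, and the sum over the 10 on the array was 26744 to 32542 on bhh-treated arrays, against 40076 to 47208 on untreated arrays. The sums for epidermis markers overlapped (48430 to 71605 on bhh-treated arrays and 63426 to 84116 on untreated arrays), as did those for notochord markers (1233 to 1496 and 1325 to 1640). krt12.2.L and krt12.2.S of the epidermis list and not.L of the notochord list lay under the background level on all arrays, and none of the pronephros or muscle list did. Of the other lists, blood and vessel markers had 1 gene that fell among 5 tested, and neural, neural crest, endoderm and hatching or cement gland markers had none that passed. These calls are without the replicate block described below. With it, muscle markers had 1 higher and 6 lower, blood and vessel markers 2 higher and 1 lower, hatching or cement gland markers 1 higher and 1 lower, and neural crest markers 1 higher. Epidermis, neural and endoderm markers each had 1 lower with the block, and the calls for pronephros and notochord markers kept their counts. The part of a changed tissue makeup in the values below was not tested. In such bulk samples fewer cells of a type and less RNA per cell cannot be told apart.

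No vesicle traffic gene passed the test between bhh-treated and untreated explants. Of the 167 probe sets, 0 were higher and 0 lower at a limma adjusted p under 0.05, where 0.74% of all tested probe sets were higher and 0.637% lower (1.38% in either direction). At an unadjusted p under 0.05, 3 were higher and 9 lower, against 6.4% and 5.81% of all probe sets. The log2 fold changes (bhh-treated minus untreated) ran from -0.64 for ap3d1.S to 0.88 for rab40b.L. No probe set differed by over 2-fold, and 3 of 167, or 1.8%, differed by over 1.5-fold, compared with 5.9% of all tested probe sets.

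The precision of the arrays sets how much change these values leave room for. For 160 of the 167 probe sets (95.8%), the 95% confidence interval of the log2 fold change, unadjusted for the number of probe sets, lay wholly within a 2-fold change in either direction. For 105 (62.9%) it lay within a 1.5-fold change. The same shares over all tested probe sets were 88.7% and 43.7%. The median standard error was 0.18 on the log2 scale for the members and 0.19 for all probe sets, and the members were brighter, with a median signal of 462 against 270.2. Of the members, 98 had a log2 fold change below 0 and 69 above, 58.7% below against 49.5% for all probe sets. Their median was -0.037, and that of all probe sets was 0.0027. With only the brightest probe set of each gene, 57.4% of members were below 0, against 51.6% of all genes. The medians were then -0.033 and -0.011. Relative to the mean of untreated arrays, the members' median was -0.089, -0.043 and 0.0061 on bhh-treated arrays 1, 2 and 3. On untreated arrays 1, 2 and 3 it was -0.0014, 0.020 and 0.018, so the groups overlapped. The groups of 3 arrays did not overlap for 9 members with bhh-treated arrays above and 14 with bhh-treated arrays below, against 9.3% and 9.01% of all tested probe sets.

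**Figure D1:**
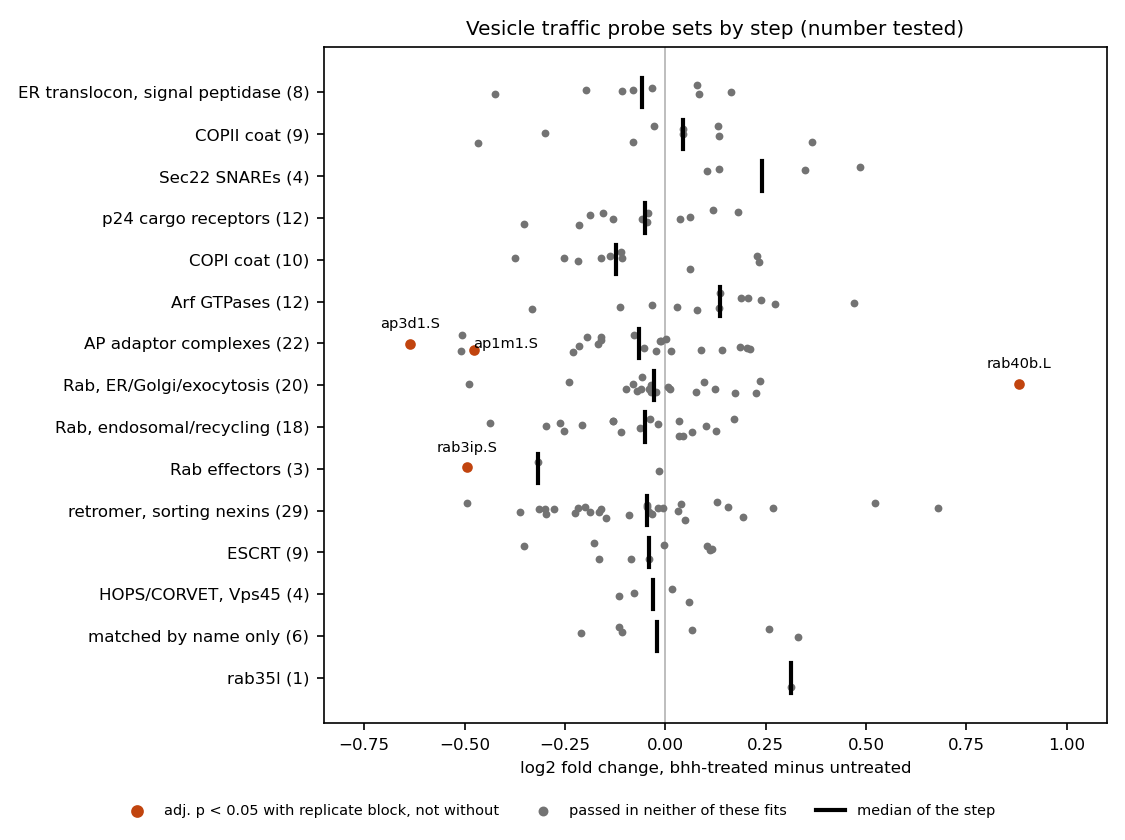
Log2 fold change (bhh-treated minus untreated, x axis) of each tested vesicle traffic probe set, by step of the pathway, with the number tested in parentheses and a bar at the median. All values lie between -0.64 and 0.88, and the 4 labelled probe sets passed in the fit with the replicate number as a block but not in the same fit without it.

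With the replicate number of the labels as a block, 4 members passed: 1 was higher (rab40b.L) and 3 were lower (ap3d1.S, ap1m1.S and rab3ip.S). In that blocked fit 3.65% of all tested probe sets were higher and 2.66% lower, or 6.31% in either direction. In the same fit without the block none of the 4 passed. Among the other settings without a block, ap3d1.S passed with array weights, without untreated array 1 and without both arrays numbered 1, rab3ip.S passed without both arrays numbered 1, rab40b.L passed with array weights, and ap1m1.S passed in none.

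AP-3 carries membrane proteins from endosomes to lysosomes and related organelles, and ap3d1 encodes its delta subunit. The brighter probe set of ap3d1.S had signals of 382.4, 315.8 and 326.4 in bhh-treated explants, against 443.7, 587.6 and 567.7 in untreated explants. All bhh-treated arrays were thus below all untreated ones. The log2 fold change was -0.64 ± 0.16 (SE), or 1.55-fold lower, with an adjusted p of 0.106, or 0.0144 with the replicate block. A dimmer probe set of the same gene did not show this difference: its signals were 211.6, 193.5 and 255.4 in bhh-treated and 259.5, 230.9 and 205.6 in untreated explants (log2 fold change -0.08 ± 0.18). Its identifier carries the suffix with which Affymetrix marks probe sets that may also detect other transcripts. Among the probe sets described below, the brightest of tmed2.L, the dimmer one of vps26a.S and dimmer ones of tmed2.L, rab1a.L and snx6.L carry this suffix too.

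AP-1 works with clathrin at the trans-Golgi network and on recycling endosomes, and ap1m1 encodes its widely expressed medium subunit, which reads sorting signals in cargo tails. At the brighter ap1m1.S probe set the signal was 402.3, 339.2 and 366.7 in bhh-treated explants, against 628, 489.1 and 439.6 in untreated explants. The groups did not overlap, and the log2 fold change was -0.48 ± 0.17 (adjusted p = 0.265, or 0.0395 with the block). The dimmer probe set had nearly equal means, 82.1 ± 15.1 in bhh-treated and 81.5 ± 15.6 in untreated explants (SD, n = 3 each). The paralogue ap1m2.S, known in mammals as the epithelial form of the subunit, had a log2 fold change of -0.16.

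The protein encoded by rab3ip, known as Rabin8 in mammals, activates Rab8 on vesicles that deliver membrane to the growing primary cilium and to the apical surface. The rab3ip.S signal was 671.3, 829.8 and 645.7 in bhh-treated explants, against 830.8, 1076.5 and 1120.9 in untreated explants. The highest bhh-treated array was just under the lowest untreated one. The log2 fold change was -0.49 ± 0.16 (adjusted p = 0.220, or 0.0232 with the block). Its homeolog rab3ip.L had the same sign, with 311.1, 324 and 336 in bhh-treated explants, against 447.9, 423.5 and 344.9 in untreated explants. Its groups did not overlap either, but it passed in neither fit (-0.32 ± 0.15, adjusted p = 0.447, or 0.201 with the block).

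Rab40 proteins are unusual Rabs that carry a SOCS box and act with a ubiquitin ligase. The brighter rab40b.L probe set was dim, with 103.7, 116.2 and 121.1 in bhh-treated explants, against 44.8, 64.4 and 80.9 in untreated explants, the lowest of which approached the background level of 37.6. Its bhh-treated arrays were all above the untreated ones, by 1.84-fold (log2 fold change 0.88 ± 0.26, adjusted p = 0.171, or 0.0341 with the block). The second rab40b.L probe set differed in sign, at 58.1, 48.1 and 60.2 in bhh-treated and 53.4, 49.4 and 71.9 in untreated explants (-0.06 ± 0.26). The 3 probe sets of rab40c.S, a relative, had log2 fold changes of -0.24 to 0.08.

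**Figure D2:**
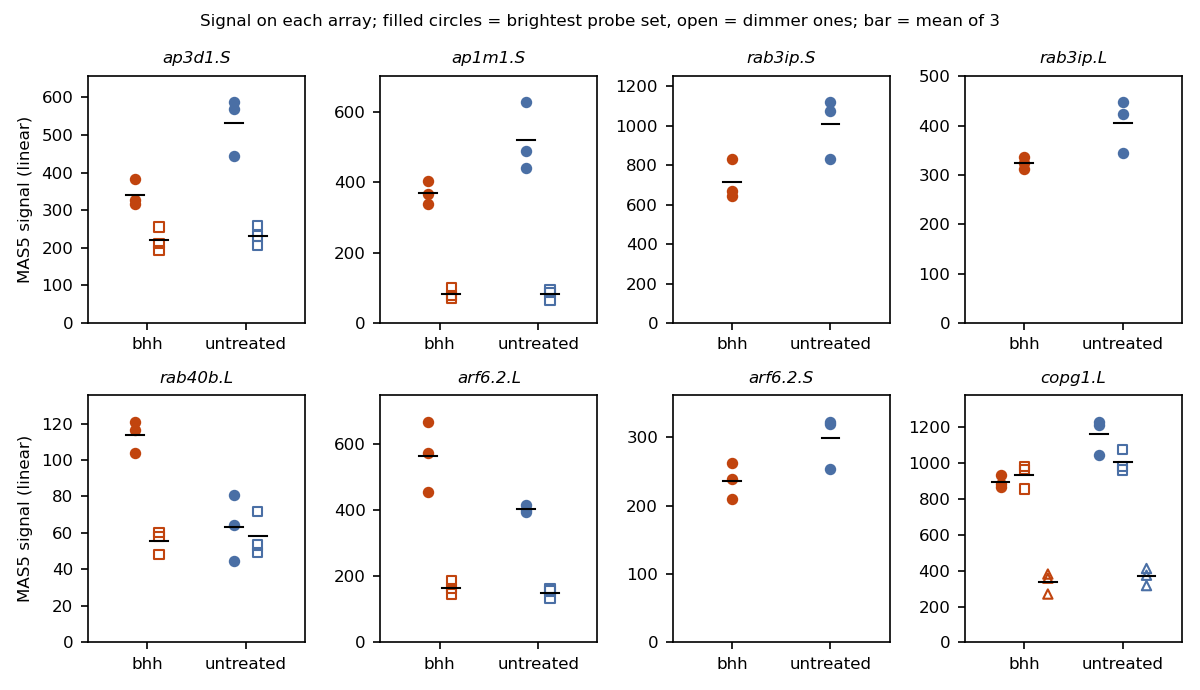
MAS5 signal (y axis, linear, from 0) on each array for 8 genes, with bhh-treated arrays left of untreated ones, filled circles for the brightest probe set, open symbols for dimmer ones and a bar at the mean of 3 arrays. The brighter probe sets of ap3d1.S, ap1m1.S and rab40b.L separate the groups, while their dimmer ones overlap.

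At the entrance to the pathway, 8 probe sets of 7 genes were measured, 0 of which passed in either fit. The subunits of the Sec61 channel were among the brightest probe sets. The sec61g.L signal was 14488.6, 15070 and 12539.6 in bhh-treated explants, against 12967, 11892.3 and 12625.8 in untreated explants (log2 fold change 0.16 ± 0.14), so the groups overlapped. A dimmer sec61g.L probe set had 0.08 ± 0.15. The alpha subunit gene sec61a1.S, which encodes the pore itself, had -0.03 and sec61b.L -0.08. The largest difference was in sec63.L, whose product recruits the chaperone BiP to the channel, at 285.7, 221.3 and 239.6 in bhh-treated explants, against 264.2, 422.4 and 328.1 in untreated explants (-0.42 ± 0.20, adjusted p = 0.423). Its homeolog sec63.S had 0.08 ± 0.21. sec62.S, for the partner of Sec63, had -0.20 ± 0.21, and the signal peptidase gene sec11a.L had -0.11.

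The COPII coat and its partners were represented by 9 probe sets of 9 genes, with a median log2 fold change of 0.044 and none passing in either fit. sec13.S, part of the outer cage, had 4927.6, 3980.9 and 3335.1 in bhh-treated explants, against 4277.6, 3154.3 and 3695.3 in untreated explants (0.13 ± 0.17). sec31b.S, for the other cage subunit, had 119.3, 135.6 and 164.9 in bhh-treated explants, against 161.2, 208.7 and 209.1 in untreated explants. Only the highest bhh-treated array reached the untreated range, and the adjusted p was 0.381 (-0.47 ± 0.20). The .L copy had -0.08 ± 0.29. The inner coat gene sec24c.S, which binds cargo, had 0.37 ± 0.31 at a dim probe set, and sec23ip.S, for a Sec23-binding protein of ER exit sites, had -0.30 ± 0.23. Sec22b is one of the SNAREs, proteins that fuse vesicles with their target, and works between ER and Golgi. All 4 probe sets of sec22b and the related sec22a were above 0 (sec22a.L 0.35 ± 0.20, sec22a.S 0.10 ± 0.16, sec22b.L 0.13 ± 0.14 and sec22b.S 0.48 ± 0.33). None passed, with the lowest adjusted p at 0.536.

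The p24 proteins are cargo receptors that cycle between ER and Golgi. Their 12 probe sets had log2 fold changes between -0.35 and 0.18 and none passed. The 5 probe sets of tmed2.L were all below 0, from -0.35 to -0.06. The brightest had 4353.7, 3910.2 and 3604.6 in bhh-treated explants, against 4439.9, 4283.5 and 3635.4 in untreated explants, so the groups overlapped. tmed10l.L had 0.18 ± 0.14, and both homeologs of tmed4 lay near 0 at their brighter probe sets (tmed4.L 0.12 ± 0.16 and tmed4.S 0.06 ± 0.13). The dimmer tmed4.S probe set had -0.13 ± 0.18.

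The medians of the COPI and Arf steps lay on opposite sides of 0, and the Arf step includes the arf6 and arf6.2 genes. Of 10 COPI probe sets 7 were below 0, with a median log2 fold change of -0.12, and of 12 Arf probe sets 9 were above 0, with a median of 0.14. With 1 probe set for each of the 8 Arf genes the Arf median was 0.054, and without both arrays numbered 1 the COPI median was -0.049. Taking the median over each step on each array, relative to the mean of untreated arrays, COPI had -0.23, -0.12 and -0.092 in bhh-treated explants, against 0.074, -0.0098 and 0.045 in untreated explants. Arf had 0.11, 0.064 and 0.14 in bhh-treated explants, against 0.019, 0.014 and 0.0011 in untreated explants. For both steps the groups did not overlap, and these steps were picked out after their values were seen. Rab effectors, with 3 tested probe sets, did not overlap either. They had -0.37, -0.27 and -0.26 in bhh-treated explants, against -0.13, 0.072 and 0.11 in untreated explants. Among single probe sets the groups did not overlap for 18.3% of all tested, and how often step medians separate by chance was not tested. These step medians are a description with no test, and no single COPI or Arf probe set passed in either fit. In other settings, copg1.L passed with array weights (adjusted p = 0.0419). With the block it also passed under quantile normalization (0.0448) and with an offset of 50 (0.0496). arf6.2.L passed with array weights (0.0152) and without both arrays numbered 1 (0.0171).

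Within COPI the brightest copg1.L probe set, for a gamma subunit, had 864.1, 883.1 and 934.4 in bhh-treated explants, against 1042.2, 1231.3 and 1209.5 in untreated explants (log2 fold change -0.37 ± 0.13, adjusted p = 0.251, or 0.051 with the block). Its other probe sets had -0.11 and -0.14, with overlapping groups. The paralogue copg2.S had the opposite sign, with all bhh-treated arrays above the untreated ones (0.23 ± 0.15). copb2.S, for the beta-prime subunit, had 2391.7, 2587.7 and 2520 in bhh-treated explants, against 3132.6, 3252 and 2591.4 in untreated explants (-0.25 ± 0.13), with the lowest untreated array next to the bhh-treated ones. The alpha subunit gene copa.L had -0.11 and the beta subunit gene copb1.L had 0.06. copz1, for the zeta subunit, had -0.22 ± 0.13 in the .L copy and 0.23 ± 0.24 in the .S copy.

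Arf6 works at the cell surface and on recycling endosomes, whereas Arf1, Arf3, Arf4 and Arf5 work mainly at the Golgi. The brighter arf6.2.L probe set had 454.9, 668.2 and 571.8 in bhh-treated explants, against 415.5, 399.8 and 393.4 in untreated explants. All bhh-treated arrays were above the untreated ones, and the spread was wider among them (0.47 ± 0.16, adjusted p = 0.261, or 0.0535 with the block). The dimmer probe set had 0.14 ± 0.19. arf4.L, among the brightest Arf genes, had 7031.3, 7491 and 7502.8 in bhh-treated explants, against 6453.1, 6177.9 and 6700.6 in untreated explants. Its groups did not overlap, at a difference of 1.14-fold (0.19 ± 0.12, adjusted p = 0.597). Its homeolog arf4.S had 0.03 and 0.13 at its probe sets.

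**Figure D3:**
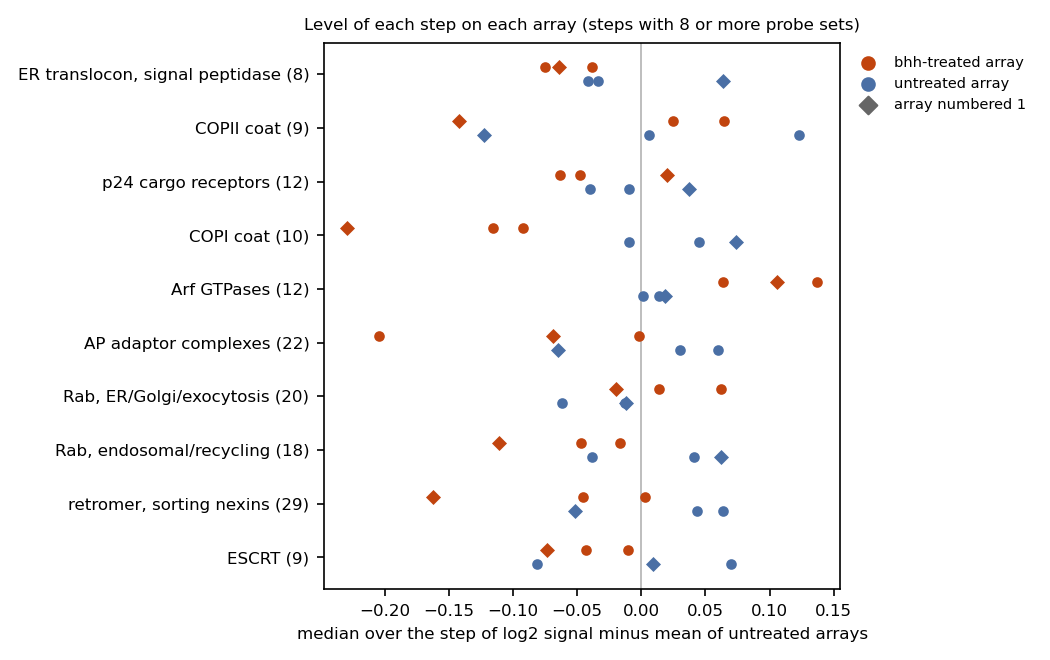
Median over each step of the log2 signal on an array minus the mean of the untreated arrays (x axis), for steps with 8 or more probe sets, with diamonds for the arrays numbered 1. COPI is lower and Arf higher on all bhh-treated arrays, while the groups overlap in the other steps shown.

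The adaptor complexes gave 22 probe sets of 16 genes, 15 of them below 0, with a median of -0.066. Besides ap3d1.S and ap1m1.S, the AP-3 gene ap3b1.L had 90.7, 145.6 and 156.7 in bhh-treated explants, against 158.3, 184.7 and 203.4 in untreated explants at one dim probe set (-0.51 ± 0.24, adjusted p = 0.423), while its brightest had -0.16. The identifier of that dim probe set carries the same suffix as the dimmer one of ap3d1.S. The dimmest ap3b1.L probe set had -0.51 ± 0.33, with overlapping groups. The remaining AP-3 genes, ap3m2.S, ap3s1.S and ap3s2.S, had log2 fold changes of -0.013, 0.0015 and -0.23. AP-2 selects cargo for clathrin-coated pits at the cell surface. Its medium subunit gene ap2m1.L had 3115.5, 3006.7 and 3088.2 in bhh-treated explants, against 3309.9, 3837.9 and 3561.5 in untreated explants. These groups did not overlap but differed by 1.16-fold (-0.22 ± 0.12, adjusted p = 0.523), and ap2m1.S had a like value (-0.19 ± 0.15).

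Rab GTPases mark compartments and recruit the motors and tethers that move vesicles. For those of the ER, Golgi and exocytosis, 20 of 21 probe sets were tested, with a median of -0.029. Rab1, needed between ER and Golgi, was measured by 4 probe sets of rab1a.L, which had log2 fold changes of 0.01, 0.01, 0.17 and 0.10 from brightest to dimmest. rab6a.S, of the Golgi, had 0.12 and rab10.L, of basolateral transport, -0.04 ± 0.14. rab3d.L, a Rab of secretory granules, had 3158, 2820.4 and 3102.7 in bhh-treated explants, against 2544.9, 2412.2 and 2809.3 in untreated explants. The lowest bhh-treated array was just above the highest untreated one (0.23 ± 0.12, adjusted p = 0.506). rab43.S had 0.24 ± 0.15. rab8a.S, the substrate of Rabin8, was below 0 at both of its probe sets. The dimmer had 134.4, 153.9 and 171 in bhh-treated explants, against 193, 204.9 and 246.9 in untreated explants (-0.49 ± 0.19, adjusted p = 0.321). The brighter had -0.07 ± 0.18, and the difference between them did not pass (0.42 ± 0.26, limma adjusted p = 0.838).

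Of the Rabs of endosomes, lysosomes and recycling, 18 of 20 probe sets were tested, with a median of -0.050 and none passing in either fit. rab24.L, linked to autophagy in mammals, had 105.3, 106.7 and 95.1 in bhh-treated explants, against 131.1, 143.1 and 141.5 in untreated explants. The groups stood clearly apart on these dim signals, but the adjusted p was 0.379 (-0.44 ± 0.19). rab7a.L, of late endosomes, had -0.26 ± 0.15 and rab7a.S 0.13 ± 0.21. The probe sets of rab5a.L, of early endosomes, had -0.21 ± 0.14 and -0.30 ± 0.19. rab11a.S, which runs recycling endosomes and ciliary delivery, had 4460.4, 3162.5 and 3655.7 in bhh-treated explants, against 4417.4, 2794.5 and 3815.3 in untreated explants (0.04 ± 0.19), with same-numbered arrays close to each other. rab25.L, an epithelial relative of Rab11, was 1.13-fold higher with groups that did not overlap (0.17 ± 0.12). Of 4 probe sets for Rab effectors and regulators 3 were tested, the rab3ip homeologs above and the Rab11 effector gene rab11fip4l.L, which had -0.015 ± 0.15. All 3 were below 0, with a median of -0.32. The untested rab11fip5.L was dim and had the opposite sign, with 57.8, 41.5 and 38 in bhh-treated explants, against 23, 31.1 and 34.5 in untreated explants. In a fit without the filter it had 0.63 ± 0.35 (adjusted p = 0.581). rab35l.L, assigned to no step, had 0.31 ± 0.22.

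Retromer and the sorting nexins return cargo from endosomes to the Golgi or the cell surface. Of 33 probe sets 29 were tested, and 20 of these were below 0, with a median of -0.047. vps26a.S, for a retromer subunit, had 302.9, 248.2 and 305.6 in bhh-treated explants, against 298.7, 480.2 and 446.3 in untreated explants. Untreated array 1 lay within the bhh-treated range (-0.49 ± 0.20, adjusted p = 0.354). The dimmer vps26a.S probe set had -0.23 ± 0.24, with overlapping groups. vps26a.L had -0.19 ± 0.19, vps35.S -0.15 ± 0.13 and the probe sets of vps29.S -0.04 and -0.05. The related gene vps26c.L, for a subunit of the retriever complex, had 210.9, 216 and 204 in bhh-treated explants, against 168.7, 106.4 and 174.5 in untreated explants, so it lay higher on all bhh-treated arrays (0.52 ± 0.22, adjusted p = 0.365). Snx5 and Snx6 form coats with retromer partners. The brightest snx6.L probe set had 761.5, 838.6 and 737.8 in bhh-treated explants, against 933.4, 1000.8 and 939.2 in untreated explants, with no overlap (-0.30 ± 0.12, adjusted p = 0.367). The other 3 probe sets of snx6.L had -0.28, -0.31 and -0.01, and snx5.L had -0.30 ± 0.18. snx7.S gave the largest positive value of the step at a dim probe set (0.68 ± 0.34, adjusted p = 0.456). Its other probe set, too dim for testing, had -0.14 ± 0.33 in a fit without the filter. snx12.L and snx12.S had 0.16 ± 0.13 and 0.03 ± 0.13.

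The ESCRT complexes bud receptors into the lumen of late endosomes. Their 9 probe sets had log2 fold changes between -0.35 and 0.12, and 0 passed in either fit. vps25.L, of ESCRT-II, was nearly level, with 1071.3, 1051.6 and 1053.5 in bhh-treated explants, against 1067.6, 979.4 and 1142.3 in untreated explants (-0.0030 ± 0.12, 95% interval -0.27 to 0.27). vps37b.L, of ESCRT-I, had -0.35 ± 0.19 and vps37b.S -0.04 ± 0.16. vps36.L had -0.16 ± 0.25, and vps4a.L, for the ATPase that takes ESCRT-III apart, 0.11 ± 0.20. Among genes for tethers and fusion at endosomes and lysosomes, vps11.S had 0.02 ± 0.18, vps18.S -0.08 ± 0.20 at its brightest probe set and vps45.S 0.06 ± 0.19. A dimmer tested vps18.S probe set had -0.12 ± 0.23. Some genes matched the rule by name although their products are not known as vesicle traffic machinery: vps72, which encodes a subunit of a chromatin remodelling complex, had 0.26 ± 0.18 in the .L copy and -0.11 ± 0.17 in the .S copy. A dimmer vps72.S probe set had 0.07 ± 0.28. rab5if.L had -0.21 ± 0.14, rab5if.S 0.33 ± 0.21, and the lipid-binding protein gene sec14l1.L had -0.11.

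Both homeologs were tested for 21 genes of the set, and 7 of these pairs had log2 fold changes of opposite sign, against 34.4% of all 812 such pairs on the array. The difference between homeologs was tested with limma on the within-array log2 ratio of their brightest probe sets. In that fit 0 of the 21 pairs passed, where 0.369% of all pairs did. With the replicate block 0 passed, where 0.493% of all pairs did. At an unadjusted p under 0.05 there was 1 of the 21, against 7.27% of all pairs. The median absolute difference was 0.28 for the 21 pairs and 0.18 for all 812, which is a description with no test. The widest difference was in arf6.2, with 0.47 ± 0.16 for the .L copy and -0.33 ± 0.17 for the .S copy. It amounted to 0.80 ± 0.21 and had an adjusted p of 0.390, or 0.150 with the block. arf6.2.S had 238.9, 262.4 and 209.1 in bhh-treated explants, against 319, 323.1 and 254.2 in untreated explants, which overlapped. The next widest differences (.L minus .S) were those of rab5if (-0.54 ± 0.28, adjusted p = 0.714), sec63 (-0.50 ± 0.27, adjusted p = 0.714), copz1 (-0.44 ± 0.28, adjusted p = 0.834) and rab7a (-0.39 ± 0.20, adjusted p = 0.714). How far the probe sets of a pair detect each other's transcripts was not tested.

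**Figure D4:**
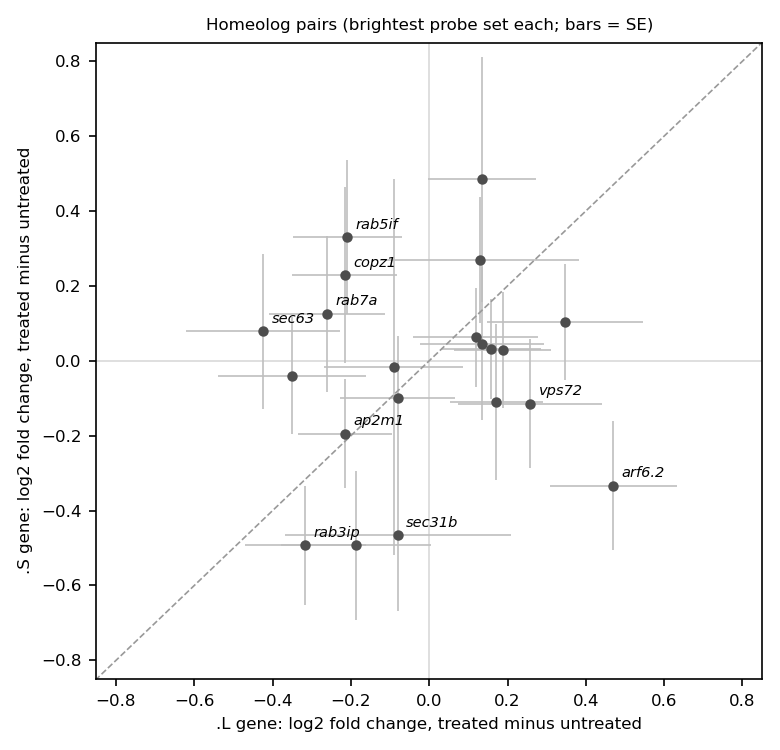
Log2 fold change (bhh-treated minus untreated) of the .L gene (x axis) against that of the .S gene (y axis) for the 21 pairs, with bars of 1 SE and a dashed line of equal change. arf6.2 lies farthest from the line, and rab3ip is below 0 on both axes.

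Probe sets of the same gene were compared in the same way for 27 genes of the set with at least 2 tested probe sets. Of these, 10 had opposite signs at their 2 brightest probe sets, against 36% of all 928 such genes. None of the 27 differences passed, and none of the 928 did, with or without the block (1 of the 27 and 6.79% of all had an unadjusted p under 0.05). The member with that p was rab40b.L, with a difference of 0.94 ± 0.23 (adjusted p = 0.494). For ap3d1.S the difference was -0.56 ± 0.25 (adjusted p = 0.752) and for ap1m1.S -0.49 ± 0.32 (adjusted p = 0.853).

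The replicate number held a larger share of the members' variation than treatment did, as it did over all tested probe sets. The median share of a member's sum of squares on the log2 scale was 13.4% between treatments and 46.8% between replicate numbers, against 18.4% and 45% for all tested probe sets. The number has more degrees of freedom than treatment, so these shares are set beside each other as a description. The number's share was the larger one for 120 of 167 members, against 7750 of all 11618 tested probe sets. What the numbers mean is not given. Measures of RNA quality and hybridisation moved with them. The ratio of 3′ to 5′ GAPDH control signal was 4.42, 3.67 and 3.01 on bhh-treated arrays 1, 2 and 3, against 4.1, 3.59 and 3.31 on untreated arrays 1, 2 and 3. In both groups it was highest on array 1 and lowest on array 3. The median hybridisation control signal was 1287, 1164 and 615 on bhh-treated arrays 1, 2 and 3, against 2065, 1101 and 688 on untreated arrays 1, 2 and 3. Their part in the members' values was not tested. Examples of members that moved with the number are copz1.S, with 1236.2, 1863.6 and 2109.6 on bhh-treated arrays 1, 2 and 3 and 1058.4, 1491.8 and 1913.4 on untreated arrays 1, 2 and 3, and sec31b.L, with 178.3, 316.7 and 345.4 on bhh-treated and 193.8, 370.9 and 320.5 on untreated arrays. In both genes the arrays numbered 1 were the lowest of each group. These examples were chosen after their values were seen.

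Without both arrays numbered 1, a setting added after the data were seen, 5 members passed of 167, where 5% of all probe sets did. They were ap3d1.S, rab3ip.S, sec63.L and vps26a.S, which were lower, and arf6.2.L, which was higher. The log2 fold change was then -0.85 for ap3d1.S, with an adjusted p of 0.0031, and -0.75 for vps26a.S, with an adjusted p of 0.0142. The dimmer vps26a.S probe set had 0.044 in this setting.

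Other genes of the pathway, taken from 8 lists and measured at their brightest probe sets, were tested in the same fits. Of 155 tested, 0 were higher and 0 lower without the block, and 3 were higher and 2 lower with it. Over all tested probe sets 0.74% were higher and 0.637% lower without the block, and 3.65% were higher and 2.66% lower with it. Among 25 SNARE and fusion genes, stx6.L, a SNARE of the trans-Golgi network, had 701.6, 823 and 898.7 in bhh-treated explants, against 522.2, 610.6 and 672 in untreated explants (0.43 ± 0.15, adjusted p = 0.277, or 0.0343 with the block). All its bhh-treated arrays were above the untreated ones, but a second, dimmer stx6.L probe set had -0.19 ± 0.18. bet1.L, of ER to Golgi transport, had 0.74 ± 0.30 and stx19.S 0.51 ± 0.20 (adjusted p = 0.0252 for bet1.L and 0.0426 for stx19.S with the block), both with overlapping groups. The homeolog bet1.S had -0.13 ± 0.18, and the dimmer stx19.S probe sets had 0.31 ± 0.22 and 0.10 ± 0.20. Neither bet1.S nor these dimmer stx19.S probe sets passed in either fit. snap25.L, known for synaptic vesicle fusion in neurons, had 68.8, 121 and 65 in bhh-treated explants, against 106.7, 202.6 and 208 in untreated explants (-1.02 ± 0.32, adjusted p = 0.203, or 0.0118 with the block). One bhh-treated array lay inside the untreated range.

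Among 25 clathrin and endocytosis genes, the brightest probe sets of both homeologs of cltb, which encodes a clathrin light chain, were lower on all bhh-treated arrays. cltb.S had 122.1, 142.9 and 132.7 in bhh-treated explants, against 172.5, 243.7 and 197.9 in untreated explants (-0.62 ± 0.19, adjusted p = 0.206, or 0.0423 with the block). cltb.L had 422.5, 485.4 and 406.8 in bhh-treated explants, against 674.3, 511.7 and 607.7 in untreated explants (-0.44 ± 0.15, adjusted p = 0.261, or 0.0672 with the block). A second, dimmer cltb.L probe set had 82.5, 111.6 and 88.2 in bhh-treated explants, against 91.5, 104.1 and 118 in untreated explants, which overlapped (-0.16 ± 0.22, adjusted p = 0.828). None of 24 COPII and COPI partners, 35 genes of ER targeting and processing, 16 ESCRT and endosome partners, 17 tethers and Golgi genes or 10 Rab regulators passed in either fit. The members of these lists with the smallest p were lman1.S (-0.60 ± 0.29), camlg.L (-0.31 ± 0.12), washc3.L (-0.37 ± 0.18), exoc4.L (-0.31 ± 0.14) and rilp.S (-0.69 ± 0.35). The list of hedgehog-related and secretory transcription factor genes had 3 measured members, xbp1.L, creb3l2.L and creb3.S, all transcription factors. Its other genes that are not transcription factors (disp1, disp2, disp3, scube1, scube2, scube3, hhat and ptchd1) had no probe set with a single symbol and were not measured. xbp1.L, a regulator of ER capacity, had 1293.7, 1359.3 and 1458.5 in bhh-treated explants, against 1495.4, 1691.6 and 1705.3 in untreated explants. Its groups did not overlap (-0.25 ± 0.12, adjusted p = 0.452).

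The 9 probe sets too dim for testing were those of rab3a.L, rab11fip5.L, vps35l.S, snx25.L, rab22a.L, snx9.L and rab4b.L and the dimmest of vps18.S and snx7.S. On all 6 arrays snx25.L, snx9.L, rab4b.L and that vps18.S probe set stayed under 37.6. rab3a.L, the Rab of synaptic vesicles, which was chosen after its values were seen, had 21.1, 27.4 and 44.4 in bhh-treated explants, against 88.8, 57.5 and 70.9 in untreated explants. In a fit without the filter its log2 fold change was -1.27 ± 0.36, with an adjusted p of 0.198, or 0.0975 with the replicate block. Of 4 tested neural tissue markers, 0 passed without the block and 1, tubb2b.S, was lower with it. Its mean was 1153 in bhh-treated and 1544 in untreated explants. The groups overlapped for sox2.L (means 241.5 and 241.4), sox3.L (87.6 and 102.5) and sox3.S (78.3 and 78.9). The signal summed over the 8 genes of the list was 1669 to 1730 on bhh-treated arrays, against 1992 to 2193 on untreated arrays. tubb2b.S made up most of this sum. Of the 8 genes, ncam1.L was under the background level on all arrays. The part of neural tissue in the rab3a.L and snap25.L values was not tested.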

How the data were processed

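Per the submitters' processing notes, the authors made the deposited values with MAS5, as intensity values on a linear scale, 1 per probe set and array. The sources used here give neither its version nor its settings. MAS5 scales arrays to a common level and subtracts mismatch signal, which makes dim values noisy. Per the labels' protocols, 1 µg of total RNA per pool was amplified to biotin-labelled cRNA. Nothing says that pools came from separate batches of embryos, so p-values measure the spread between these pools.

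Probe sets were named through the platform's gene table, updated by gene identifier to RefSeq symbols (assembly Xenopus_laevis_v10.1, names only), which matched all 176 members. Of 15491 probe sets, 9304 had 1 symbol, 195 several and 5992 none. Of 15611 in the table, 120 controls were left out. No 2 arrays shared over 0.25% of values. Log2 intensities were fitted in R 4.3.3 with limma 3.58.1 (eBayes with trend, two-sided) over 11618 probe sets, with Benjamini-Hochberg adjustment over all of them and a threshold of 0.05. The script was tested on simulated data. Background is the 95th percentile of 44 control probe sets (37.6).

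To check the pairing, each array's deviations from its group mean were set against those of the array with the same number. Their correlation was 0.407 for number 1, 0.178 for number 2 and 0.298 for number 3, above the limit of 0.1 taken for pairing, so a fit with the number as a block stands beside the other. These correlations do not show that the pools were paired, since measures of RNA quality and hybridisation also moved with the number. What they reflect was not tested. Members and lists were chosen with earlier results of these data known. By rule the text names members that passed in either fit, the 3 genes with the smallest p and the brightest gene in each step, all probe sets and homeologs of these, and, from the other pathway lists, genes that passed in either fit and the one with the smallest p. Any other gene named, such as ap3b1.L, copg2.S, rab8a.S, rab25.L, snx5.L and cltb.L, was chosen after its values were seen. The homeolog and probe set pair fits and 5 alternatives were added after the data were seen. Alternatives are given in the closing section. No sequences are printed.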

Additional observations from a re-analysis of the deposited data

How the results depend on the processing

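Over 22 alternatives, 17 planned and 5 added after seeing the data, the median log2 fold change of the members lay between -0.059 and -0.016, against -0.037. No member passed in 14 of them. The counts of higher and lower members, of 167, were 1 and 3 with the replicate block and 2 and 4 with array weights. Among the added settings with the block, they were 2 and 4 under quantile normalization and 1 and 3 with scaling to a common median. With the block they were also 1 and 4 with an offset of 50, and 0 and 2, of 176, with no filter. Without both arrays numbered 1 they were 1 and 4. Leaving out 1 array gave 0 higher and 0 to 1 lower members: ap3d1.S passed without untreated array 1 (adjusted p = 0.048). With array weights rab40b.L and arf6.2.L passed as higher, and ap3d1.S, copg1.L, sec63.L and vps26a.S as lower. With the block, copg1.L also passed under quantile normalization and with an offset of 50, and sec61g.L under quantile normalization. Over all 11618 tested probe sets, 160 (1.38%) passed, but 733 (6.31%) with the replicate block and 657 (5.66%) with array weights. Without a variance trend 95 (0.818%) passed, and without both arrays numbered 1 581 (5%). With 1 array left out they were 61 (0.525%, without untreated array 2) to 186 (1.6%, without bhh-treated array 1). With the block they were 679 (5.84%) under quantile normalization, 557 (4.79%) under median scaling and 733 (6.31%) with the offset. With the block and no filter they were 470 of 15491 (3.03%). The adjusted p ranges over the settings without the block were 0.0027 to 0.398 for ap3d1.S, 0.057 to 0.656 for ap1m1.S, 0.028 to 0.626 for rab3ip.S and 0.039 to 0.525 for rab40b.L, each with 1 sign throughout.

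Step medians moved by more than the spread between arrays as follows. With no filter, with the dimmer 50% left out or with only the brightest probe sets, each log2 fold change stays the same. Those settings change which probe sets a step holds. For the other settings the cause was not tested. ER entry had 0.051 with quantile normalization, with or without the block, -0.013 without both arrays numbered 1, and -0.12 to -0.015 with 1 array left out. Rab effectors had -0.17 with no filter, with or without the block, and -0.21 without both arrays numbered 1. Arf had 0.11 with the dimmer 50% left out, 0.054 with the brightest probe set of each gene and 0.090 to 0.16 with 1 array left out. Tethers had 0.037 with the dimmer 50% left out, -0.084 without both arrays numbered 1 and -0.067 to 0.020 with 1 left out. Genes matched by name had -0.11 with the dimmer 50% left out and with the brightest probe set, and -0.14 to 0.086 with 1 left out. Secretory Rabs had 0.037 with array weights, 0.088 without both arrays numbered 1 and -0.035 to 0.031 with 1 left out. ESCRT had 0.024, 0.055 and -0.061 to 0.038 under the same 3 settings. Retromer and sorting nexins had -0.17 to 0.014 with 1 left out. COPI had -0.049 and adaptors -0.17 without both arrays numbered 1, and p24 had 0.036 with the brightest probe sets.

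Of 80 named probe sets, some that passed in no fit changed sign by more than their SE. With array weights vps36.L had 0.19 and vps45.S -0.15. With 1 array left out, values ran from -0.36 to 0.22 for sec31b.L, from -0.040 to 0.24 for tmed4.L, from -0.25 to 0.070 for a dimmer tmed4.S probe set and from -0.34 to 0.047 for vps26a.L. Without both arrays numbered 1 the values were tmed4.L -0.091, rab10.L 0.12, vps36.L 0.27 and vps45.S -0.16. In that setting dimmer probe sets had 0.093 for tmed4.S, 0.0064 for rab5a.L, 0.044 for vps26a.S and 0.16 for vps18.S. With 1 array left out, the fit pools the spread of the 2 remaining arrays with that of the other group.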
